A study of Homo sapiens with 4 samples.

Results

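The regions described here are 6403 ChIP-seq peaks of Flag-tagged FLI1 at the promoters of protein-coding genes. The genes have no coding neighbour starting back to back with them, and the peaks have no canonical FLI1 octamer at the summit. Whether each peak is a site of direct binding was not tested. The regions were selected from the 30819 peaks of the control library in 4 steps. The peak overlapped a peak of the IFN-γ library by at least 1 bp, which 23895 peaks did, and its summit lay within 1 kb of the transcription start site (TSS) of the canonical transcript of a coding gene, which left 8434. The gene had no divergent coding TSS on the opposite strand within 1 kb, which left 7638 one-way promoter peaks. None of the words CAGGAAGT and CCGGAAGT, on either strand, lay within 100 bp of the control summit, which removed 1235 peaks. The members therefore made up 83.8% (83.0% to 84.7%) of the shared one-way promoter peaks and belonged to 6190 genes, or 34.1% of the 18138 coding genes with a one-way TSS. Because the members were chosen by measured peaks and by these letters, their presence in both libraries and the lack of the octamer are not results. Ranges in parentheses are exact 95% intervals (Clopper-Pearson for shares, binomial order statistics for medians, binomial for ratios of fragments) and cover counting error, or the spread over regions, but no variation between cultures.

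The cells were HK1, an established line of nasopharyngeal carcinoma, with overexpression of Flag-FLI1. Chromatin was precipitated by way of the Flag tag, so the peaks report the introduced FLI1 and not the cell's own. The control library was from cells given PBS and the IFN-γ library from cells given IFN-γ for 24 h. There was 1 library per condition, so the treatment was not tested and every difference between the libraries is a difference between 2 libraries. The input libraries are not analysed here. The deposited lists give for each summit the fold enrichment over the local background, which was used with its −log10 p to recover the number of fragments piled up at the summit. The control list had a median pileup of 16 fragments, and the 39654 peaks of the IFN-γ list had a median of 22. The lowest backgrounds, 1.06 and 1.54 fragments, gave a relative depth of 1.46, by which pileups were scaled for every ratio. The pairs of fragment numbers printed below are unscaled, so equal numbers in both libraries correspond to a ratio below 1.

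FLI1 belongs to the ETS family of transcription factors, whose winged helix-turn-helix domain reads a GGAA core and tolerates many bases on either side of it, with affinity set by the flanks. ETS sites are a standard element of CpG-rich promoters of housekeeping genes, where several family members can occupy the same site, and they often stand beside GC boxes, the sites of SP and KLF factors. FLI1 itself is best known from blood and endothelial cells, and as the DNA-binding part of the EWSR1 fusion of Ewing sarcoma, which also binds runs of GGAA.

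The following windows of 81 bases show what stood at the summits in place of the octamer. They are centred on the control summit, are printed on the strand of the gene from GRCh38, and overlap no annotated exon. In the first pair the capitals mark CGGAAG or its complement, and these are the highest-ranked such members with at least 2 copies in the window.
ENSG00000274322 (chr20:1393177-1393257, minus strand): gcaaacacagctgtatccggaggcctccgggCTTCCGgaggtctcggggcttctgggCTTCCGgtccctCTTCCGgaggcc
AP1S2 (chrX:15855019-15855099, minus strand): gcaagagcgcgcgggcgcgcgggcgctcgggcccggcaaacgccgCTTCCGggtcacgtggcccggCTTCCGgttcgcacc
In the next pair the capitals mark CCGGAAGC, the octamer with its last base changed.
SURF6 (chr9:133336212-133336292, minus strand): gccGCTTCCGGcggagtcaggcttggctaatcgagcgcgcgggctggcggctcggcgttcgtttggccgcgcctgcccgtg
FAM83G (chr17:19004811-19004891, minus strand): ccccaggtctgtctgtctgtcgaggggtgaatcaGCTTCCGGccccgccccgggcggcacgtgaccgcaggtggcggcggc
In another pair, which held AGGAAG but no CGGAAG within 100 bp, the capitals mark AGGAAG.
ZYX (chr7:143381113-143381193, plus strand): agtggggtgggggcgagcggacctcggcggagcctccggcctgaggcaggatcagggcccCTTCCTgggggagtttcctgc
ELOA (chr1:23743844-23743924, plus strand): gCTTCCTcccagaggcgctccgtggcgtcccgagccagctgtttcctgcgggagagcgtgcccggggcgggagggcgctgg
A further pair held the core but neither hexamer, and the capitals mark the core.
BLOC1S5 (chr6:8064464-8064544, minus strand): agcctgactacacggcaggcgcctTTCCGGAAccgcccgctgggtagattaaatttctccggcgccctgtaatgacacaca
GOLGA3 (chr12:132828880-132828960, minus strand): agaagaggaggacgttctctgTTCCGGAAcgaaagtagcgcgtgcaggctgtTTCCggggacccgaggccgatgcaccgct
The last pair held no core within 100 bp, and the capitals mark the GC box GGGCGG.
ZNF367 (chr9:96417463-96417543, minus strand): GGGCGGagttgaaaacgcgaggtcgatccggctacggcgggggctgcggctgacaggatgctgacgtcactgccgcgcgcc
NCBP3 (chr17:3846280-3846360, minus strand): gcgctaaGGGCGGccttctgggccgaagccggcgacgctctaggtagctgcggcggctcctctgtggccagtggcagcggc

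The members were weaker peaks than those at one-way promoters that held the octamer, in both libraries. Their median fold enrichment was 9.83 (9.73 to 10.1) with PBS and 7.47 (7.31 to 7.57) with IFN-γ. The 1235 promoters with the octamer had medians of 17.4 (16.6 to 18.3) and 15.7 (15.0 to 16.4). Bidirectional coding promoters, of which 796 were shared, lay between them with 12.8 and 10.5. The 15461 shared peaks more than 1 kb from a coding TSS had 6.84 and 8.24. They were the class whose enrichment was higher in the IFN-γ library. Fold enrichment also depends on the local background. Its median was 1.36 fragments with PBS and 2.63 with IFN-γ at the members, and 1.43 and 2.54 at the peaks away from coding TSSs. In fragments, the median member had a pileup of 24 with PBS and 27 with IFN-γ, against 45 and 60 at promoters with the octamer. The middle range of the members was broad. The control fold enrichment was 5.31 at the 10th percentile and 23.4 at the 90th, and the extremes were 2.74 and 226. The fold enrichments of a member in the 2 libraries were related across regions (Spearman's rho 0.704 over 6403 regions, which share both libraries and their base composition), as the scatter of the members shows.

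**Figure D1:**
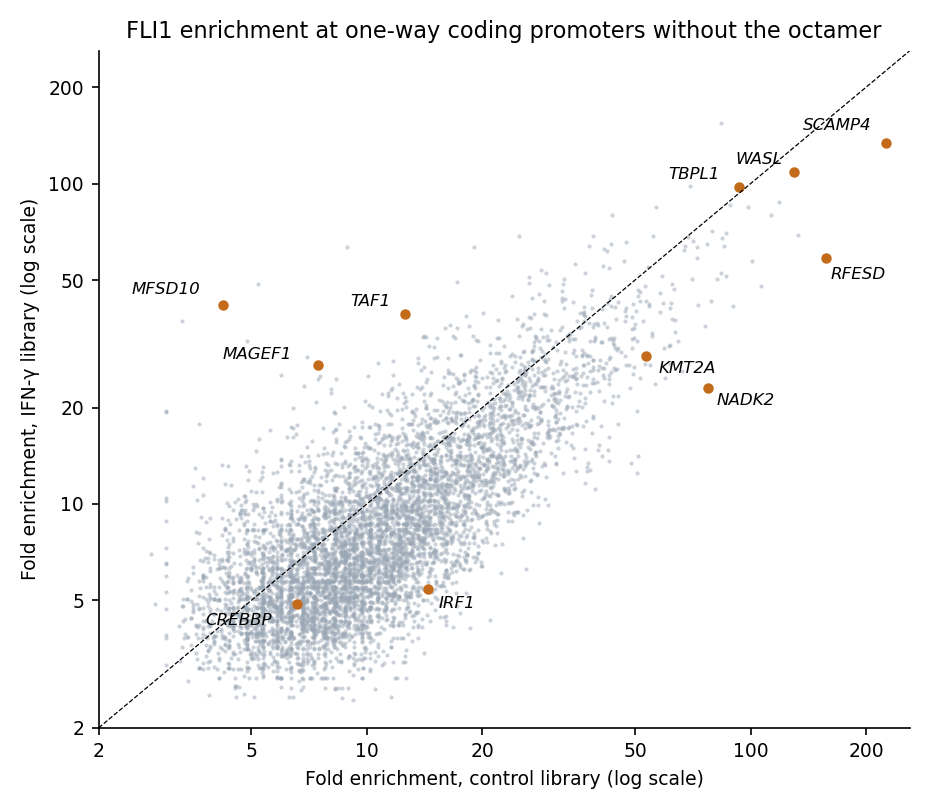
Fold enrichment of FLI1 at each of the 6403 members in the control library (x axis) and in the IFN-γ library (y axis), both on log scales, with the line of equal values dashed and named members in orange. Most points lie under the line, and *SCAMP4* has the highest control value, 226.

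The highest-ranked members stood near the head of both lists. *SCAMP4*, a gene of vesicle trafficking (peak at chr19:1905113-1906131), had a pileup of 516 with PBS and 579 with IFN-γ, at ranks 1 and 5 of the lists, with fold enrichments of 226 and 134. Its window held 1 CGGAAG and 5 cores, and the summits of the libraries lay 2 bp apart, 349 bp downstream of the TSS. *WASL*, which encodes the actin regulator N-WASP (chr7:123748324-123749704), followed with pileups of 347 and 410. *RFESD*, a Rieske domain gene (chr5:95646642-95647346), had 578 and 411 fragments, so the IFN-γ library was lower there even before scaling, with a ratio of 0.488 (0.429 to 0.555). *TBPL1*, a relative of the TATA-binding protein gene (chr6:133952079-133953490), had 239 and 345 fragments, a ratio of 0.991 (0.838 to 1.17), and AGGAAG but no CGGAAG. *STMN3*, a stathmin gene, reached 268 and 304 fragments with a single core in its window and neither hexamer. *EXOC2*, an exocyst subunit gene, had 307 and 296. These 6 had control ranks from 1 to 21. At the other end, *NR4A3*, an orphan nuclear receptor gene, had 7 and 8 fragments, and *PRRT4* had 7 and 10.

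Enrichment was higher where the members held more of the ETS letters. The classes below were built from the hexamers CGGAAG and AGGAAG and the core GGAA, all within 100 bp of the control summit and on both strands. A window with CGGAAG or AGGAAG also holds GGAA, and the classes are exclusive in the order given. At least 2 copies of CGGAAG stood at 500 members, 1 copy at 1886, AGGAAG without CGGAAG at 1342, the core alone at 2269 and no core at 406. Median control fold enrichment was 17.1 (15.7 to 18.5) with 2 or more copies of CGGAAG, 12.2 (11.7 to 12.6) with 1 copy and 9.25 (8.93 to 9.63) with AGGAAG. It was 8.47 (8.27 to 8.75) with the core alone and 7.46 (7.21 to 7.93) with none. The IFN-γ library had the same order, from 13.4 through 9.25, 7.24 and 6.27 to 5.38. Members with 2 or more CGGAAG thus came close to the promoters with the octamer in the control library and stayed below them in the IFN-γ library. By exact copy number, medians of the control library went from 8.60 with no CGGAAG to 12.2 with 1, 15.8 with 2 and 24.7 with 3, the last over 56 members.

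**Figure D2:**
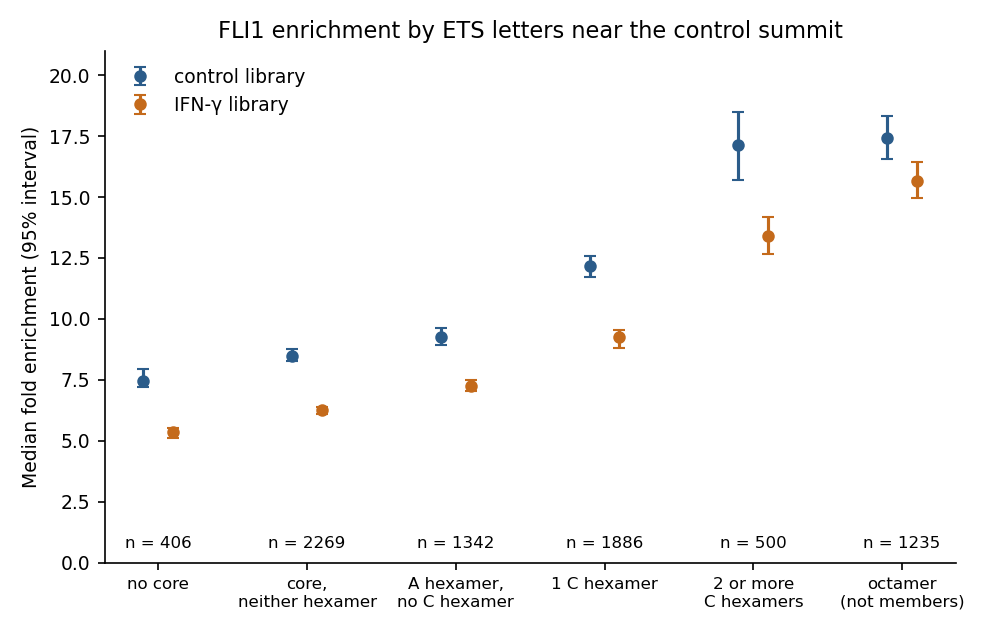
Median fold enrichment with its 95% interval in the control library (blue) and the IFN-γ library (orange) for the members by ETS letters within 100 bp of the control summit, with the promoters that hold the octamer at the right. The C hexamer and A hexamer are the ETS hexamers that begin with C and with A, and the control medians run from 7.46 without a core to 17.1 with 2 or more C hexamers.

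The summits were also closer to each other where the letters were stronger. The control and IFN-γ summits of a pair lay within 50 bp at 81.2% (77.5% to 84.5%) of the members with 2 or more CGGAAG, at 64.3% (62.1% to 66.5%) with 1 copy, at 51.1% (48.4% to 53.8%) with AGGAAG, at 42.9% (40.9% to 45.0%) with the core alone and at 24.1% (20.1% to 28.6%) with none. Over all members the share was 52.7%, against 84.8% at promoters with the octamer. Fragment number moved with these letters too, with median control pileups of 42, 29, 22, 20 and 17 in the same order, and its part in the distance between summits was not tested.

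GC content did not run in the same order as enrichment. Its median was 68.2% with 2 or more CGGAAG, 70.6% with 1, 68.2% with AGGAAG, 70.6% with the core alone and 76.6% without a core. Within each range of GC content, members with CGGAAG had the higher median in both libraries. Under 50% GC this rested on 24 members with CGGAAG, and the intervals with and without it overlapped in both libraries. Between 70% and 80% GC, the control medians were 14.1 (13.3 to 14.7) at 1063 members with CGGAAG and 8.98 (8.76 to 9.25) at 1776 without, and the IFN-γ medians were 9.65 and 6.17. Between 50% and 60% GC, the control medians were 10.5 over 261 members with CGGAAG and 7.26 over 456 without. The part of base composition in the enrichment was not tested further.

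Ordered by mean rank over both lists, the letters thinned out along the list. CGGAAG stood at 67.1% (63.3% to 70.7%) of the best-ranked 10% of the members and at 13.4% (10.9% to 16.3%) of the worst-ranked 10%, with 41.0% just above the middle of the list. The share without any core went the other way, from 0.468% to 15.0%. Among all 7638 shared one-way peaks the octamer itself went from 44.8% in the best-ranked 10% to 2.49% in the worst-ranked 10%, so most of the best-ranked peaks also lacked it.

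Single-base relatives of the octamer were frequent among the members. There are 44 words that differ from CAGGAAGT or CCGGAAGT by 1 base, and at least 1 of them stood within 100 bp of the summit at 53.0% (51.7% to 54.2%) of the members. In windows of the same width centred 1 kb to either side of the summits, which were not stripped of the octamer and held it at 1.46%, the share was 25.0%, and at 8475 one-way coding TSSs with no peak of either list within 1 kb it was 28.4%. The 20 words that kept GGAA were found at 44.6% of the members and in 14.0% of the flanking windows. Control fold enrichment was 12.3 with such a word and 8.64 without.

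The most common relatives changed the last base. CCGGAAGC stood at 704 members, 11.0% (10.2% to 11.8%) of them, and in 0.39% of the flanking windows. Members that carried it had median fold enrichments of 15.9 with PBS and 12.9 with IFN-γ. CCGGAAGG followed at 376 members with 13.9 and 10.5, and CAGGAAGC at 334 members with 11.7 and 9.02. A change of the first base, GCGGAAGT, was carried by 318 members with 14.7 and 12.6, and CCGGAAAT, with the seventh base changed, by 144 members with 17.5 and 16.3. The most common word in which the core itself was broken, CCGGGAGT, stood at 130 members with 10.5 and 7.49.

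The shares of these words were also set beside those of the same letters in other orders, which have the same base composition. CGGAAG was found at 37.3% of the members, whereas the other 29 arrangements of its letters with the same number of CG steps had a median of 11.5% and a highest share of 25.8%. CCGGAAGC came first among the 300 arrangements of its letters, the next standing at 6.34%. CCGGAAGG had rank 3 among its arrangements. The highest of the other arrangements held ETS letters themselves. GCGGAA, at 25.8%, holds GGAA, and CCCGGAAG, at 6.34%, and CTTCCGGC, at 7.22%, hold CGGAAG on 1 strand.

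Among the motifs searched, the ETS hexamer and the GC box had the largest differences in share between the members and their flanks, in percentage points, whereas the rarer CRE had the largest ratio of the 2 shares. CGGAAG stood at 37.3% (36.1% to 38.5%) of the members, in 4.94% (4.57% to 5.32%) of the flanking windows, at 8.40% of the one-way TSSs without a peak and at 78.9% of the promoters with the octamer. The word CCGGAAGT holds CGGAAG and CAGGAAGT holds AGGAAG, so the rule itself lowers the shares of both hexamers at the members and raises them at the promoters with the octamer. At the IFN-γ summits CGGAAG stood at 38.2% of the members and the octamer at 2.33%, but 67.2% of these summits lay within 100 bp of the control summit, so most of the windows overlap the stretch that the rule kept free of the octamer. The GC box GGGCGG stood at 64.1% of the members, 15.4% of the flanking windows, 34.6% of the TSSs without a peak and 57.2% of the promoters with the octamer. AGGAAG was less distinct, with 30.0% of the members, 20.1% of the flanking windows and 24.5% of the TSSs without a peak. The bare core was common everywhere, at 93.7% of the members and 83.7% of the flanking windows. Where the hexamer CGGAAG was present, its nearest copy lay a median of 22.5 bp from the control summit, and it lay within 20 bp at 45.5% of the 2386 members. Its strand followed the gene in 51.9% (49.6% to 54.1%) of the 1886 members with a single copy.

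The other promoter motifs stood at fewer of the members than CGGAAG did. The CRE TGACGTCA, the site of CREB and ATF factors, stood at 1.83% of the members and 0.172% of the flanking windows. The E-box CACGTG of MYC and USF stood at 6.90% and 3.04%, the YY1 core AAGATGGC at 3.06% and 0.633%, and the NRF1 core GCATGCGC at 1.95% and 0.648%. The TATA box word TATAAA was scarce, at 1.44% of the members against 10.9% of the flanking windows and 11.9% of the TSSs without a peak, and the CCAAT box CCAAT stood at 15.0% against 21.8% and 25.7%. The STAT site TTCNNNGAA was found at 3.19% of the members and 5.47% of the flanking windows, and the shortened ISRE, an IRF site, at 1.78% and 2.83%. Control fold enrichment with and without the word differed by less than 2 units for each of these and for the GC box (10.2 and 9.36, with the reverse order of 7.30 and 7.69 in the IFN-γ library), for example 11.5 and 9.80 for the YY1 core and 9.57 and 9.86 for the STAT site. Base composition moved with these shares. Median GC content was 70.6% at the members, 48.8% in their flanks and 59.7% at the TSSs without a peak, and the observed over expected frequency of CpG was 0.871, 0.397 and 0.442.

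The summits lay on both sides of the TSS. They were upstream at 51.6% (50.4% to 52.8%) of the members, against 65.2% (62.5% to 67.8%) of the promoters with the octamer, and the median position was 5 bp upstream against 22 bp. They lay within 50 bp of the TSS at 24.1% of the members and at 48.7% of the promoters with the octamer. The 1545 members within 50 bp had the highest median control fold enrichment of the 7 distance ranges, 12.2, and the highest share of CGGAAG, 49.7%. From 51 to 200 bp downstream the values were 8.97 and 32.4%. By annotation, 34.5% of the summits were upstream and in no exon, 17.1% upstream but in an exon of another transcript, 32.1% downstream in an exon and 16.3% downstream in no exon. Of the 2705 members more than 200 bp from the canonical TSS, 20.3% lay within 100 bp of another annotated TSS of a coding gene and 6.54% within 100 bp of a lncRNA TSS. A divergent lncRNA started within 1 kb of the TSS at 18.9% of the members, at 21.5% of the promoters with the octamer and at 12.0% of all one-way coding TSSs.

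Scaled for depth, the pileups of the members were lower in the IFN-γ library. The median ratio of IFN-γ over control was 0.785 (0.777 to 0.792) and 75.8% of the members were under 1. It was 0.926 (0.905 to 0.944) at promoters with the octamer, 0.893 at bidirectional promoters, between 1.17 and 1.19, by its interval, at shared peaks away from coding TSSs, and 1.03 over all 23895 shared pairs. A ratio of at least 2 was found at 86 members, or 1.34%, where 8.14% of all shared pairs reached it. A ratio of at most 0.5 was found at 560 members, or 8.75%, where the background was 3.81%. A member had to be called in both libraries, which keeps out sites that were strong in 1 of them alone. The relative depth rests on the lowest backgrounds, and with 1 library each a difference in the efficiency of the precipitation and an effect of IFN-γ cannot be told apart.

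GC content moved with this ratio in the 3 classes of peak examined, which leave out the bidirectional promoters. Among the members the median ratio was 1.30 under 50% GC (148 members), 1.08 from 50% to 60%, 0.859 from 60% to 70%, 0.704 from 70% to 80% and 0.637 (0.618 to 0.660) at 80% or more (517 members). The same ranges gave 1.36, 1.19, 0.953, 0.794 and 0.669 at promoters with the octamer, and 1.37, 1.17, 0.944, 0.719 and 0.628 at the shared peaks away from coding TSSs. Spearman's rho between GC content and the ratio was -0.476 over the members, whose points share both libraries. In the ranges from 50% to 80% GC the members stood below the promoters with the octamer. Of the members, 86.5% had a GC content of at least 60%. The part of base composition in the lower ratio of the members was not tested further.

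At 3 of the 5 members with the lowest ratios, the summits of the libraries lay within 24 bp of each other. Ratios were ranked among the 2576 members whose pileups at both summits summed to at least 60 fragments. *NADK2*, which encodes the mitochondrial NAD kinase (chr5:36240933-36242644), had 336 control fragments and 160 with IFN-γ. Its ratio was 0.327 (0.269 to 0.396), with summits 6 bp apart. *ECI2*, of fatty acid oxidation, had 47 and 23 fragments, *SLC45A4* had 102 and 53, *ZDHHC23*, a palmitoyltransferase gene, 55 and 25, and *RESF1* 43 and 19, the lowest ratio of the 5 at 0.303 (0.167 to 0.532). The GC content of the 5 lay between 66.2% and 76.6%, around the median of 70.6% of all members. The summits lay 245 bp apart at *RESF1* and 278 bp apart at *ZDHHC23*.

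The highest ratios came from pairs whose summits were far apart. *MFSD10* had 8 control fragments and 116 with IFN-γ, *HNRNPU* 12 and 153, *BUD13* 10 and 115, *EN1* 9 and 81 and *DPP9* 18 and 160. Their IFN-γ summits lay 526 to 1501 bp from the control summit, in wider peaks, so these values compare different positions. Of the 86 members with a ratio of at least 2, 57 had summits more than 100 bp apart. Where the summits lay within 100 bp, a restriction added after the values were seen, 29 of 4304 members, or 0.674%, reached a ratio of 2, where 1603 of all 18838 shared pairs under the same restriction did, or 8.51%. The highest among those with 60 fragments were *MAGEF1*, with 24 and 114 fragments and a ratio of 3.26 (2.09 to 5.30), *NR1D1*, the gene of the clock repressor REV-ERBα, with 17 and 75, ENSG00000267385 with 14 and 58, *VWA5A* with 14 and 53, and *TREM1*, a receptor gene of myeloid cells, with 52 and 185. These 5 were picked by their ratio and met the limit of 60 mainly through the IFN-γ library, where they were high. They had AT-rich windows for the members, with GC contents from 45.8% to 58.2%. None held CGGAAG, which 62.7% of all members also lacked. The window of *MAGEF1* held 20 cores, with 5 GGAA units in a row.

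Runs of GGAA units, the sites known from the EWSR1 fusion, were found at few members. A run of at least 4 units in a row lay within 100 bp of the summit at 12 members, and the longest, of 12 units, lay 570 bp upstream of *ZNF627*, with 32 and 56 fragments. *OR4F6*, the only olfactory receptor gene among the members, had a run of 11 units with 10 and 27 fragments. *CCK* had 11 units with 16 and 45 fragments, and *FOXK1* had 5 with 35 and 112. The median ratio of the 12 was 1.93 and 10 of them were above 1. Their median GC content was 49.5%, and the members under 50% GC had a median ratio of 1.30 as given above. The runs were singled out after their values were seen.

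Some genes of the study and its pathway were looked up by name. Of 16 genes of chromatin regulation and IFN-γ signalling that the study or its pathway names and that are reported here, 15 had a member peak. The share of all one-way coding genes was 34.1%. The chromatin genes were picked by the study in part from binding in these same libraries, so that choice raises their count and nothing is read from it. The pathway genes were picked by hand from IFN-γ response genes, of which 18 of 37 with a one-way TSS had a member. The remaining 1, *KAT5*, a histone acetyltransferase gene, held the octamer and had 77 and 89 fragments.

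*CREBBP*, which encodes the histone acetyltransferase CBP, had a weak peak. It had 21 control fragments and 13 with IFN-γ, fold enrichments of 6.58 and 4.86, and control rank 13576. The ratio was 0.425 (0.196 to 0.890), and the summits lay 5 bp apart, 99 bp upstream of the TSS. The window held 2 cores within 100 bp of the summit but none within the 81 bases printed here, which held GC boxes. A further *CREBBP* peak, 617 bp downstream of the TSS, was in the control list alone with 11 fragments.
CREBBP (chr16:3880772-3880852, minus strand): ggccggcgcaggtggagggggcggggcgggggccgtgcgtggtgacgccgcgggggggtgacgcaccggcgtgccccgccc

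The other chromatin genes covered a wide range. *KMT2A*, the MLL histone methyltransferase gene (chr11:118435466-118437155), had 124 and 104 fragments, fold enrichments of 53.4 and 28.9 and a ratio of 0.576 (0.440 to 0.754), with a single core in its window. *TAF1*, of the general transcription factor TFIID, was the member of this group with the interval above 1, with 41 and 111 fragments and a ratio of 1.86 (1.29 to 2.73) at a GC content of 55.2%. *KAT2B* had 36 and 32 fragments and *PHF8*, a histone demethylase gene, 22 and 35. Of the SWI/SNF remodelling genes, *SMARCA4* had 47 and 40 fragments with a ratio of 0.585 (0.374 to 0.911), *SMARCC1* 41 and 40, *SMARCC2* 42 and 88 with a ratio of 1.44 (0.986 to 2.13), and *SMARCB1* 14 and 17. *KDM2A* had 11 and 15.

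The receptor and kinase genes of the pathway were modest sites. *IFNGR1* had 31 and 24 fragments with a ratio of 0.532 (0.299 to 0.936), and *IFNGR2* had 13 and 16. *JAK1* had 30 and 28 and *JAK2* 26 and 29, with intervals on both sides of 1. *IRF1*, a transcription factor gene that IFN-γ induces, had 34 and 21 fragments, fold enrichments of 14.4 and 5.41, and a ratio of 0.424 (0.234 to 0.752). The intervals of *IRF1*, *CREBBP*, *IFNGR1*, *KMT2A* and *SMARCA4* lay below 1, and their windows had GC contents between 68.2% and 83.1%, where the median ratio of all members was also below 1.
IRF1 (chr5:132490934-132491014, minus strand): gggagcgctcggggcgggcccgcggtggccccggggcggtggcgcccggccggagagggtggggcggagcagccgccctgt

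**Figure D3:**
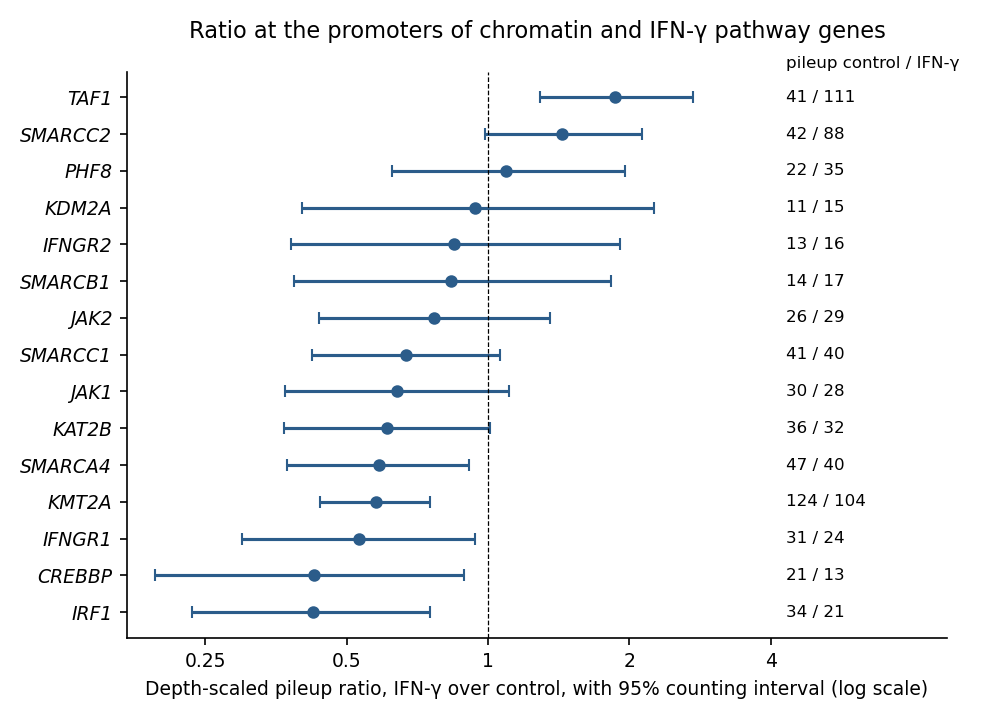
Depth-scaled pileup ratio of IFN-γ over control (log scale) with its exact 95% counting interval at the 15 named members, with the 2 pileups at the right. *TAF1* lies highest at 1.86 and *IRF1* lowest at 0.424.

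The share of genes with a member peak varied between gene groups around the 34.1% of all one-way coding genes. A shared peak with the octamer stood at 1234 of all 18138 one-way coding genes, or 6.80%, the share to set beside the octamer counts below. The lists were compiled with results of these data known and their shares are descriptions. Cytosolic ribosomal protein genes had a member at 48 of 74 promoters, with median fold enrichments of 16.1 and 13.0 and CGGAAG at 58.0% of the peaks, and 17 more held the octamer. *RPS26* had 128 and 164 fragments and *RPS27* 107 and 257, a ratio of 1.65 (1.31 to 2.09). Mitochondrial ribosomal protein genes had a member at 35 of 52 promoters with medians of 9.87 and 7.49, led by *MRPS33* with 137 and 186 fragments. Proteasome genes had 19 of 34, with *PSMD4* at 110 and 118 fragments and *PSMD2* at 96 and 111. These are genes of the basic machinery of the cell, with promoters that are active in most cell types.

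Genes that respond quickly to growth signals made up a further list. Of 27 immediate early genes with a one-way TSS, 19 had a member and 1 held the octamer, 3 of their 20 peaks held CGGAAG, and their median ratio was 0.744. *FOSL1*, an AP-1 subunit gene, had 117 and 128 fragments 888 bp downstream of its TSS, a ratio of 0.751 (0.580 to 0.974), and *DUSP6*, a phosphatase gene of the MAP kinase pathway, had 79 and 170, a ratio of 1.48 (1.13 to 1.96). Of 27 actin and SRF target genes 9 were members, with *ZYX* the strongest at 138 and 239 fragments. Of 29 DNA replication genes 16 were members, among them *ORC2* with 71 and 91.

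IFN-γ response genes had a member at 18 of 37 promoters and the octamer at 1. Their median fold enrichments were 10.3 and 6.65, close to the 9.83 and 7.47 of all members, and their median ratio was 0.76 against 0.785. *TRIM21*, an antibody receptor and ubiquitin ligase gene, had 33 and 88 fragments with a ratio of 1.83 (1.21 to 2.82), and *PDCD1LG2*, which encodes the checkpoint ligand PD-L2, had 14 and 40 with 1.96 (1.04 to 3.90), in a window with 42.3% GC. *STAT2* had 28 and 30 fragments, *IRF7* 32 and 29, *SOCS3* 20 and 14, and *PSMB8*, an immunoproteasome subunit gene, 15 and 23, each with an interval that reached 1. Histone acetyltransferase genes had a member at 9 of 16 promoters and the octamer at 4, and their median ratio was 0.610. A ratio of 0.5 or less was found at 2 of 9 peaks and at 8.75% of all members, and 9 peaks are too few to compare these shares. *EP300* had 74 and 98 fragments with a ratio of 0.910 (0.666 to 1.25). *NCOA3* had 30 and 21 with 0.481 (0.262 to 0.868), and *KAT6A* had 38 and 33 with 0.596 (0.363 to 0.977).

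The remaining lists held lineage genes and large gene families. Squamous epithelial genes had a member at 9 of 36 promoters, led by *ITGB4* with 28 and 31 fragments, and HOX genes at 10 of 39, led by *HOXA10* with 52 and 45. Replication-dependent histone genes had 14 of 43, and their median ratio was 1.17 at a median GC content of 55.2%. None of the 43 had a shared peak with the octamer, which 6.80% of all one-way coding genes had. These 43 promoters are too few to compare the shares. Zinc finger genes named ZNF had a member at 173 of 470 promoters and the octamer at 76, and 52.3% of their 174 peaks held CGGAAG, among them *ZNF335* with 253 and 353 fragments and *ZNF143* with 227 and 311. Olfactory receptor genes had 1 member of 398.

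The thresholds of the rule cut through a continuum. *TNPO3* (203 and 334 fragments) and ENSG00000284952 (93 and 113) were just inside, each with an octamer whose far end lay 101 bp from the summit. *MAPK8IP3* (100 and 98) and *ERGIC3* (36 and 58) were just outside, with the far end at 100 bp. Of the members, 1.80% had an octamer reaching to between 101 and 200 bp of the summit, and 6.92% had one somewhere in the control peak. At the edge of 1 kb, *PRXL2B* (11 and 17 fragments, 1000 bp from the TSS) and *ZCWPW2* (16 and 27, at 998 bp) were inside, and *PYM1* (82 and 172) and *CTBP1* (16 and 40), each at 1001 bp, were outside.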

How the data were processed

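Both analysed libraries are Flag ChIP-seq of HK1 cells. According to the methods and the labels, the authors used cutadapt 1.18 for trimming, Bowtie2 2.3.4.1 for alignment to GRCh38, Picard to drop duplicates and MACS2 2.1.2 to call peaks. Whether the input was used in calling is not given in the sources used here. The deposited lists hold, for each peak, the fold enrichment as a ratio of pileup plus 1 to background plus 1, the −log10 p-value, the −log10 q-value, a score that restates it (not used) and the offset of the summit. Every deposited peak had a −log10 q-value of at least 1.30.

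Whole pileups and backgrounds were solved from fold and −log10 p for 100% of the peaks, with a largest relative error of 6.21e-06. Ratios were divided by the ratio of the lowest backgrounds. A mate was the best-ranked overlapping IFN-γ peak. TSSs were the canonical TSSs of 20033 coding genes in GENCODE 44. Motifs were counted on both strands in windows of 201 bp.

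Members, gene lists and tests were chosen with earlier results of these data known. The text names the 6 highest and 2 lowest members by mean rank, the 5 highest and 5 lowest ratios, the 2 nearest each threshold, genes the study names and the leading members of each list. Some genes that these rules name are not reported here. With 1 library per condition no test was run. Alternatives were other definitions of overlap, q-value, TSS distance, motif window and neighbour, another scaling, and the rule started from the IFN-γ list, added after the data were seen. The steps were tested on simulated data. Tools were samtools 1.23.1 and, in Python 3.11.15, pysam 0.24.0, scipy 1.17.1, matplotlib 3.10.9, numpy 2.4.6 and pandas 2.3.3.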

Additional observations from a re-analysis of the deposited data

How the results depend on the processing

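No paired analysis was possible because there was a single library per condition, and no replicate could be left out. Of 75 alternatives, 44 left the value inside its interval (or, for a count, within 1.5 times) and 31 moved it. Whether a direction turned was not scored. With summits of a pair within 100 bp, the share without the octamer was 78.9%, median folds were 11.5 and 8.64, 29 members had a ratio of at least 2 and 339 of at most 0.5, a core stood at 96.4%, a one-letter variant at 60.7%, and 57.4% of summits were upstream. With q under 1e-05 in both lists these values were 81.6%, 11.2, 8.48, 56, 351, 95.1%, 57.0% and 53.3%, and the median ratio was 0.797. With summits within 500 bp of the TSS, the share was 82.9%, the control fold 10.1, 48 members reached a ratio of 2 and 53.6% were upstream. Without an octamer within 200 bp, or at either summit, the share was 82.3% or 81.9%. With the median of all shared pairs set to 1, the median ratio was 0.762. In windows of 50 bp, 82.6% had a core and 40.6% a one-letter variant. Started from the IFN-γ list, the rule gave folds of 10.1 and 7.05, a ratio of 0.755, 32 members at 2 or more and a core at 95.1%. The cause of these moves was not tested, beyond fewer peaks entering. Pileups of 24 and 27 at the median member leave single ratios wide intervals.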

Other observations

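Palindromic pairs of cores stood out in the printed windows and were then counted, after the sequences had been seen. In TTCCGGAA, cores of opposite strands lie directly side by side without sharing a base. The word was found within 100 bp of the summit at 69 members, 1.08% (0.839% to 1.36%). It stood in 0.102% of the flanking windows and at 3.48% of the promoters with the octamer. The members that held it had median fold enrichments of 15.6 and 13.4, and those that lacked it 9.80 and 7.43. TTCCGGAA contains the shorter word CCGGAA, which stood at 34.2% of the members, with medians of 13.5 and 10.3. *BLOC1S5*, of the biogenesis of lysosome-related organelles, had 200 control fragments and 384 with IFN-γ. *GOLGA3*, a Golgi protein gene, is the other printed example.

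Started from the IFN-γ peaks and their summits instead, the same rule chose promoters of 6174 genes, and 5942 genes were in both sets, 96.0% of those from the control list and 96.2% of those from the IFN-γ list. *ATF4*, the transcription factor gene of the integrated stress response, was among the strongest members and was chosen after its values were seen. It had 190 control fragments and 428 with IFN-γ, at fold enrichments of 83.8 and 154 and a depth-scaled ratio of 1.55.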
